A study of Homo sapiens with 9 samples.

Results

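The genes of the mitochondrial ribosome were followed through oxygen and glucose deprivation and recovery in hCMEC/D3 cells, a line made by immortalising endothelial cells of human brain microvessels. All rows of the deposited expression table whose symbol begins with MRPL or MRPS and a digit were taken, which gave 78 of 15570 genes: 49 named for the large subunit (MRPL) and 29 named for the small subunit (MRPS). Cells of the OGD/R group were deprived of oxygen and glucose for 4 h and then kept for 16 h in normal medium at 21% O2 with 5% CO2 (n = 3). Cells of the OGD group were harvested after the same 4 h, spent without glucose in an atmosphere of 95% N2 with 5% CO2 (n = 3). Control cells were not deprived (n = 3). All 3 groups are the same line, so every value describes 1 cell line in culture. Nothing in the labels says that the replicates of a group were separate cultures, and p-values therefore measure only the spread between these libraries, which may be technical.

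The mitochondrial ribosome translates the messages of the mitochondrial genome, which encode core subunits of the respiratory chain and of ATP synthase. Its RNA components come from the mitochondrial genome, but every one of its proteins is encoded in the nucleus, made in the cytosol and imported. The large subunit forms peptide bonds and holds the exit tunnel, and the small subunit binds the message and decodes it. Some of the proteins have a counterpart in bacterial ribosomes and others are found only in mitochondria. NRF1, GABPA (an ETS family factor) and YY1 are known regulators of nuclear genes for mitochondrial proteins.

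Levels are given as FPKM (fragments per kilobase of transcript, scaled to the mapped fragments of the library), the unit of the table. Summed FPKM of all listed genes was 442696 to 449248 in OGD/R, 585947 to 605818 in OGD and 454237 to 537878 in control libraries, so the libraries were not scaled to a common sum, and read depth is unknown. The line was checked against cell type markers. Among endothelial markers, CLDN5 was at most 0.101, KDR 0.0176, VWF 0.0881, ERG 0.191, TEK 0.0804 and PECAM1 1.55 FPKM in any library, and CDH5 ranged from 1.44 to 2.62 FPKM in OGD/R, from 0.27 to 0.399 FPKM in OGD and from 0.991 to 1.39 FPKM in control. Most defining endothelial markers were thus at or near 0, and the cells are called endothelial here only after the origin of the line. The summed endothelial list, carried by MCAM, ENG and EGFL7, was 102 to 116 FPKM in OGD/R, 35.1 to 36.1 FPKM in OGD and 48.1 to 60.7 FPKM in control. EGFL7 was expressed in every library, at 6.71 to 11.6 FPKM in OGD/R, 4.14 to 6.82 FPKM in OGD and 10.04 to 14.8 FPKM in control. The fibroblast list summed to 51.9 to 69.2 FPKM in OGD/R, 9.17 to 10.7 FPKM in OGD and 20.4 to 28.2 FPKM in control, with PDGFRA and DCN at or near 0 throughout. In OGD/R the sum was carried by COL1A1 and COL1A2. LUM did not move with it, at 2.87 to 4.07 FPKM in OGD/R, 3.12 to 3.66 FPKM in OGD and 4.08 to 4.68 FPKM in control. The epithelial list, almost all KRT18, summed to 227 to 248, 119 to 128 and 157 to 188 FPKM in the same order of groups, the pericyte and smooth muscle list to 17.0 to 19.2, 6.03 to 7.62 and 9.95 to 13.5 FPKM, and the leukocyte list, almost all CD68, to 25.7 to 27.2, 20.6 to 21.7 and 17.2 to 20.7 FPKM. Astrocyte markers summed to at most 0.59 FPKM. These marker sums differed between the groups that are compared here, and their part in the results was not tested. In bulk libraries fewer cells of a type and less RNA per cell cannot be told apart.

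All 78 genes passed the expression filter, which asked for 1 FPKM or more in 3 or more of the 9 libraries. The median member had a mean of 54.0 FPKM over all libraries, and means ran 26.4-fold from lowest to highest. The median large subunit gene was at 54.8 FPKM in OGD/R, 89.0 FPKM in OGD and 65.6 FPKM in control. The median small subunit gene was lower, at 32.3 FPKM in OGD/R, 48.6 FPKM in OGD and 32.6 FPKM in control.

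The most abundant messages were MRPL33, a small protein with a bacterial counterpart, MRPL51, a protein found only in mitochondria, and MRPS24. MRPL33 had 226, 139 and 187 FPKM in OGD/R, 306, 327 and 308 FPKM in OGD and 232, 175 and 355 FPKM in control libraries. Control replicate 3 was the highest of the 9, and OGD and control overlapped. MRPL51 averaged 181 ± 25.2 FPKM in OGD/R, 288 ± 16.3 FPKM in OGD and 248 ± 60.5 FPKM in control (SD, n = 3 each), and shares exon sequence on the opposite strand with NCAPD2. MRPS24 averaged 171 ± 10.4 FPKM in OGD/R, 248 ± 16.6 FPKM in OGD and 184 ± 26.5 FPKM in control (SD, n = 3 each), and overlaps the readthrough gene URGCP-MRPS24. MRPL3 of the large subunit and MRPS15 and MRPS21 of the small subunit completed the 3 highest of each subunit, at 172, 139.5 and 129 FPKM over all libraries. At the other end were MRPL19, MRPL42 and MRPL10 of the large subunit, at 9.50, 13.9 and 19.2 FPKM, and MRPS25, MRPS5 and MRPS27 of the small subunit, at 11.4, 16.5 and 18.01 FPKM. Only 15 of the 78 genes averaged 100 FPKM or more.

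Summed over the 78 genes, the level was 4332, 4003 and 4111 FPKM in OGD/R, 6314, 6589 and 6631 FPKM in OGD and 5009, 4546 and 5970 FPKM in control libraries. Every OGD/R library was below every control library and every OGD library above every control library in this sum. As a share of all summed FPKM the same genes took 0.902% to 0.964% in OGD/R, 1.08% to 1.10% in OGD and 1.001% to 1.11% in control. On that scale the OGD libraries lay within the control range and OGD/R lay below both. The large subunit sum exceeded the small subunit sum 2.11-fold to 2.36-fold in OGD/R, 2.38-fold to 2.46-fold in OGD and 2.35-fold to 2.48-fold in control. Every OGD/R library was below every OGD library in this ratio, and control overlapped both. Control libraries varied most, with a median coefficient of variation over the 78 genes of 6.96% in OGD/R, 4.86% in OGD and 14.1% in control, and control replicate 3 was the highest control library in the sum.

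**Figure D1:**
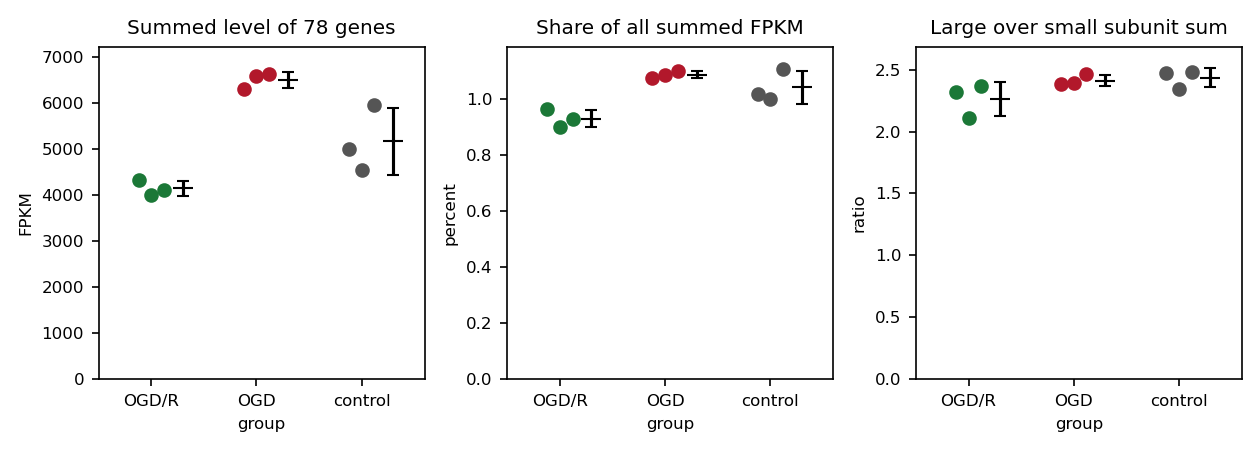
Summed FPKM of the 78 genes, their share of all summed FPKM in percent, and the ratio of large to small subunit sums, in each library (points) with group mean ± SD (n = 3). OGD stands above control in the sum (6314 to 6631 against 4546 to 5970 FPKM) but within the control range as a share (1.08% to 1.10% against 1.001% to 1.11%).

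After 4 h of deprivation, mitochondrial ribosomal protein messages were on balance higher than in control cells, while most genes that changed were lower. Of the 78 genes, 37 rose and 5 fell in OGD against control (limma on log2(FPKM + 1), Benjamini-Hochberg adjusted p under 0.05 over 10818 genes). Among all genes tested 11.3% rose and 46.7% fell. The median log2 fold change was 0.29 over the 78 genes and -0.31 over all genes, a difference of 0.60. The large subunit had 22 genes up and 3 down of 49 (median 0.29), and the small subunit 15 up and 2 down of 29 (median 0.29). The balance depended on how libraries were scaled: with each library scaled to the same summed FPKM, 17 of the 78 rose and 17 fell, where 5.65% of all genes rose and 65.4% fell. With median-of-ratios scaling 67 rose and 0 fell, where 26.5% of all genes rose and 23.1% fell. The all-gene median moved with the scaling, to -0.58 with equal sums and to -0.0043 with median-of-ratios scaling, on the log2 scale. In all settings run, 17 genes were called higher: MRPL1, MRPL11, MRPL15, MRPL20, MRPL24, MRPL32, MRPL36, MRPL42, MRPL52, MRPL53, MRPL54, MRPL58, MRPS12, MRPS15, MRPS18B, MRPS21 and MRPS33. No member was called lower in all of them. The share of all genes called in every setting was not counted.

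**Figure D2:**
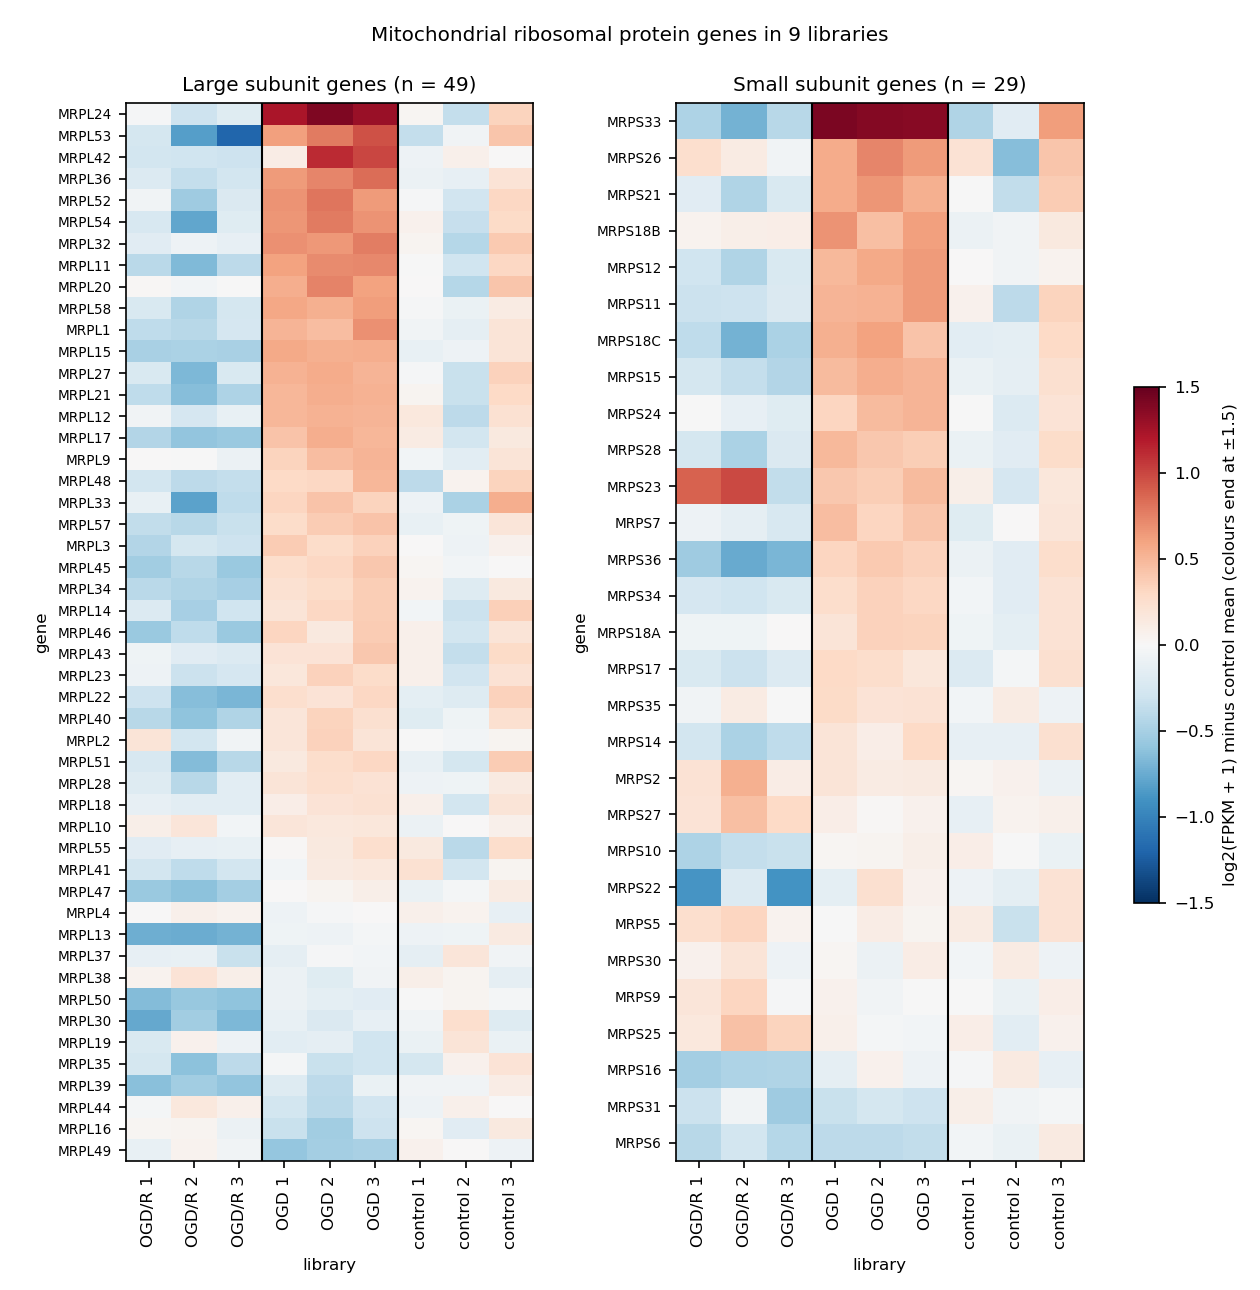
Each cell is a gene's log2(FPKM + 1) in 1 library minus its mean over the 3 control libraries, for 49 large subunit genes (left) and 29 small subunit genes (right), ordered by the log2 fold change of OGD against control. Red OGD columns at the top (MRPL24 and MRPS33, 1.31 and 1.38) contrast with MRPL49 and MRPS6 at the bottom (-0.53 and -0.39), and control replicate 3 is redder than the other 2 control libraries.

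The largest rise was that of MRPS33, a small subunit protein without a bacterial counterpart. It had 19.2, 16.00 and 19.8 FPKM in OGD/R, 72.8, 71.2 and 70.7 FPKM in OGD and 19.3, 23.7 and 41.9 FPKM in control libraries. Every OGD value stood above every other value, by a wide margin, and control replicate 3 was well above the other 2 control libraries. The log2 fold change in OGD against control was 1.38 ± 0.21 (SE), adjusted p = 2.1e-04, or 2.53-fold on the mean FPKM.

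MRPL24, a large subunit protein at the rim of the exit tunnel, had 44.2, 35.9 and 39.3 FPKM in OGD/R, 106, 119.9 and 111 FPKM in OGD and 45.8, 34.5 and 56.5 FPKM in control libraries. OGD again stood apart, and OGD/R and control overlapped. Its log2 fold change in OGD against control was 1.31 ± 0.15 (SE), adjusted p = 3.3e-05. MRPL53, another protein found only in mitochondria, had 45.7, 30.7 and 23.6 FPKM in OGD/R, 84.8, 95.5 and 108 FPKM in OGD and 42.8, 52.9 and 73.7 FPKM in control libraries. All OGD values were above all control values (log2 fold change 0.78 ± 0.22 (SE), adjusted p = 0.0091). OGD/R and control overlapped.

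MRPL42, MRPL36 and MRPL52 followed. MRPL42, one of the least abundant members, had 9.39, 9.18 and 9.13 FPKM in OGD/R, 12.6, 26.1 and 24.1 FPKM in OGD and 10.9, 12.2 and 11.5 FPKM in control libraries. OGD replicate 1 lay just above the controls and the other 2 OGD libraries far above them (log2 fold change 0.75 ± 0.20 (SE), adjusted p = 0.0079). MRPL36, a short zinc-binding protein, had 129.9, 138 and 148 FPKM in OGD against 78.1, 76.02 and 95.5 FPKM in control libraries, without overlap (log2 fold change 0.74 ± 0.10 (SE), adjusted p = 1.2e-04). MRPL52 had 73.98, 80.9 and 72.2 FPKM in OGD against 45.1, 37.4 and 57.1 FPKM in control libraries, also without overlap (log2 fold change 0.71 ± 0.15 (SE), adjusted p = 0.0018).

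The 5 genes that fell were MRPL49, MRPL16, MRPS6, MRPL44 and MRPS31. MRPL49, a large subunit protein found only in mitochondria, had 37.1, 41.5 and 38.8 FPKM in OGD/R, 26.6, 27.7 and 28.3 FPKM in OGD and 41.9, 40.4 and 38.1 FPKM in control libraries. OGD was below both other groups, which overlapped (log2 fold change in OGD against control -0.53 ± 0.08 (SE), adjusted p = 3.5e-04). MRPL16, near the peptidyl transferase centre, had 43.98, 38.4 and 44.5 FPKM in OGD against 56.6, 49.3 and 61.5 FPKM in control, without overlap (log2 fold change -0.39 ± 0.10 (SE), adjusted p = 0.0059). MRPS6 had 72.9, 73.1 and 74.2 FPKM in OGD against 93.97, 89.7 and 106 FPKM in control, again without overlap (log2 fold change -0.39 ± 0.09 (SE), adjusted p = 0.0027).

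MRPL44, which has the fold of an RNase III enzyme, changed by -0.32 ± 0.09 (SE), adjusted p = 0.011, and MRPS31 by -0.30 ± 0.12 (SE), adjusted p = 0.042, with no overlap between OGD and control in either. Relative to the median of all genes, which was itself lower in OGD, these 5 differences came to -0.22 for MRPL49, -0.08 for MRPL16, -0.08 for MRPS6, -0.01 for MRPL44 and 0.00 for MRPS31. With median-of-ratios scaling none of the 5 was called, and MRPL44 and MRPS31 turned to 0.03 and 0.05 on the log2 scale. MRPS31 lost its call without any 1 of OGD/R replicate 1, OGD replicates 1, 2 or 3, or control replicates 1 or 3 (adjusted p 0.053 to 0.11), and MRPL44 without OGD replicate 2 (-0.28, adjusted p = 0.06). Exons of MRPL49 overlap those of FAU and SYVN1 on the opposite strand, those of MRPS6 overlap SLC5A3 on the same strand and those of MRPL44 overlap an annotated antisense gene. Whether strand was used in counting is not given in the sources used here, so reads of such pairs cannot be told apart and the values are uncertain.

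Promoter sequences are shown for 4 genes that rose in OGD and 2 that fell, since they show how the letters bound by NRF1, ETS factors and YY1 are spread over genes that moved in both directions. They come from RefSeq on GRCh38.p14, run 5′ to 3′ on the strand of the gene, and cover 170 bases before to 30 bases after the transcript start in that table. Capitals mark NRF1 letters (GCGCANGC), ETS letters (CCGGAAG) or YY1 letters (AAGATGGC) on either strand. The windows are chr7:141014923-141015122 (minus strand) for MRPS33, chr1:156741059-156741258 (minus strand) for MRPL24, chr5:1799808-1800007 (minus strand) for MRPL36, chr14:22829717-22829916 (plus strand) for MRPL52, chr11:65122013-65122212 (plus strand) for MRPL49 and chr11:59810749-59810948 (minus strand) for MRPL16.
MRPS33: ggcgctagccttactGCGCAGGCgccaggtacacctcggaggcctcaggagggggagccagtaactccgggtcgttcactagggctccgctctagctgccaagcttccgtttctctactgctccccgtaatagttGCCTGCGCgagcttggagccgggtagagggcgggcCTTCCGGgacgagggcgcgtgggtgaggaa
MRPL24: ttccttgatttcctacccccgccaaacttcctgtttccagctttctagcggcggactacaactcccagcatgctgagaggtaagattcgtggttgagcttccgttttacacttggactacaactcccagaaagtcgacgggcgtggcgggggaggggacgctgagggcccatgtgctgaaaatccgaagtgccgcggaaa
MRPL36: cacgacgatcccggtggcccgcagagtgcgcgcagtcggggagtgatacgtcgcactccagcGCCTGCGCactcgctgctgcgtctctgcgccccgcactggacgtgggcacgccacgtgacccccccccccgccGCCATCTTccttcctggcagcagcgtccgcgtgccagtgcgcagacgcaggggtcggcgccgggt
MRPL52: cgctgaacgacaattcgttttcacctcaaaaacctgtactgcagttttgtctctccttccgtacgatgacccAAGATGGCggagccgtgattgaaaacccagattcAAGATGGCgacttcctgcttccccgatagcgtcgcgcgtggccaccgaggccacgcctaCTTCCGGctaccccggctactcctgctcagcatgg
MRPL49: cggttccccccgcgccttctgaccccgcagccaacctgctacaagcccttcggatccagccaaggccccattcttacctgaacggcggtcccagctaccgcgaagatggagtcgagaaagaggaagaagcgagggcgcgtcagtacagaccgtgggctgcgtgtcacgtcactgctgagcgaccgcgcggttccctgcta
MRPL16: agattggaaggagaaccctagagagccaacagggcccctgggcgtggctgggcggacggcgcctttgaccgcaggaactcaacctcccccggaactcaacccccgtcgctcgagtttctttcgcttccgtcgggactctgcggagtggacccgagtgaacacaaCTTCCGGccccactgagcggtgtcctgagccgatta
In the windows shown, MRPS33 held NRF1 letters in 2 places and ETS letters in 1. MRPL36 held NRF1 and YY1 letters in 1 place each, and MRPL52 YY1 letters in 2 places and ETS letters in 1. MRPL52 also had NRF1 letters at base -175 from the start, outside its window. MRPL24, which rose nearly as much as MRPS33, and MRPL49, which fell most, held none of the 3 in the window shown, and MRPL16 held ETS letters in 1 place. The starts used for MRPL24 and MRPL36 lie inside the RefSeq spans of these genes (chr1:156737303-156742716 and chr5:1798385-1801434), so starts further upstream are not covered. A match is a description of letters and shows neither binding nor its lack.

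Over the 70 members with a promoter in the RefSeq table (250 bases before to 50 after the start), 20 (28.6%) held the YY1 letters on either strand, against 5.91% of 8999 promoters of genes tested and 3.03% of all 27305 promoters. ETS letters were in 29 members (41.4%), against 21.2% of genes tested and 10.7% of all promoters. NRF1 letters were in 23 (32.9%), against 22.9% and 12.5%. At least 1 of the 3 was in 51 of the 70. In 15 of the 20 members with YY1 letters, a match lay at or after the first base of the transcript. The other letters searched were less common among members than among genes tested or close to them. CCAAT was in 28.6% of members against 37.2% of genes tested, the Sp1 GC box (GGGCGG) in 61.4% against 72.0%, the E-box (CACGTG) in 10% against 10.3%, and the ATF4 element (TGATGNAA) in 1.43% against 1.58%. The only overlap among matches of different kinds was that of ETS letters with an Sp1 box in 1 member. Of the 20 members with YY1 letters 11 rose and 0 fell in OGD against control (median 0.31), and of the 50 without them 23 rose and 5 fell (median 0.28). The split by ETS letters was 15 up and 2 down of 29 with them (median 0.34) and 19 up and 3 down of 41 without (median 0.26). For NRF1 letters it was 13 up and 1 down of 23 with them (median 0.32) and 21 up and 4 down of 47 without (median 0.28). In the same comparison 11.3% of all genes tested rose and 46.7% fell, with a median of -0.31. The differences between members with and without these letters were not tested.

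After 16 h of recovery most members were lower than at the end of deprivation. Of the 78 genes, 59 fell and 6 rose in OGD/R against OGD, where 17.4% of all genes tested fell and 53.3% rose. The median log2 fold change was -0.57 over the 78 genes and 0.39 over all genes, a difference of -0.96. The large subunit had 39 genes down and 4 up of 49 (median -0.68), and the small subunit 20 down and 2 up of 29 (median -0.50). With each library scaled to the same summed FPKM the counts were 30 down and 16 up, where 7.76% of all genes fell and 71.6% rose, with an all-gene median of 0.81. In all settings run, 28 of the 59 were called lower, and none of the 6 was called higher in all of them. The matching share of all genes was not counted. This comparison shares its OGD libraries with OGD against control, so a library that was high in OGD enters both.

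**Figure D3:**
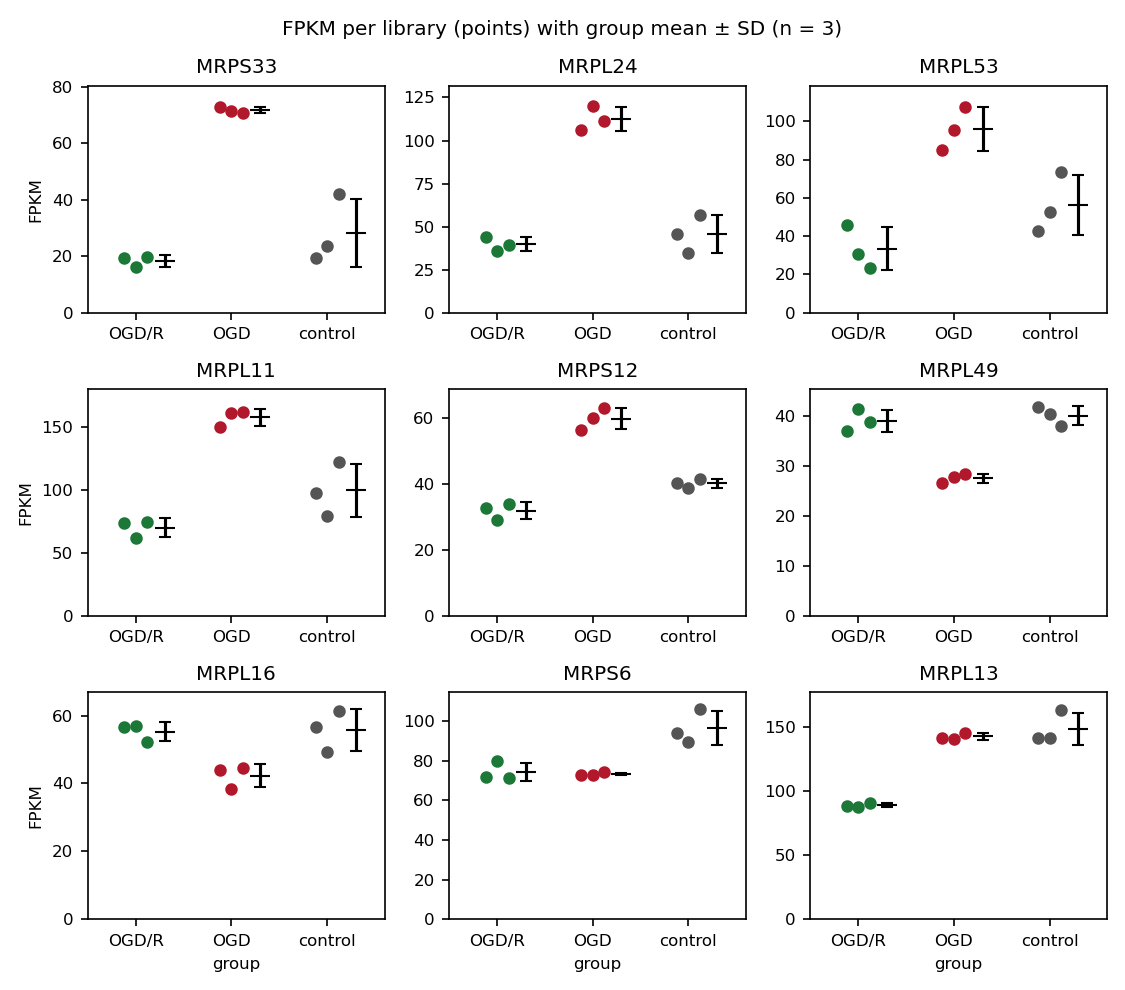
FPKM of 9 members in each library (points) with group mean ± SD (n = 3) beside them. In MRPS33, MRPL24, MRPL53, MRPL11 and MRPS12 OGD is the highest group, in MRPL49 and MRPL16 it is the lowest, MRPS6 is lower in OGD/R and OGD than in control, and MRPL13 is lower in OGD/R (87.7 to 90.4 FPKM) than in OGD and control (141 to 163 FPKM).

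The largest fall was again that of MRPS33, with the values given above: -1.91 ± 0.21 (SE), adjusted p = 6.0e-06, to 0.256 of the OGD mean. MRPL53 fell by 1.54 ± 0.22 on the log2 scale (SE, adjusted p = 5.2e-05) and MRPL24 by 1.48 ± 0.15 (SE, adjusted p = 3.3e-06). MRPL11, at the base of the stalk that recruits translation factors, had 73.9, 61.5 and 74.8 FPKM in OGD/R, 149.9, 161 and 162 FPKM in OGD and 97.6, 79.7 and 122 FPKM in control libraries. The 3 groups did not overlap, with OGD highest and OGD/R lowest (log2 fold change in OGD/R against OGD -1.16 ± 0.13 (SE), adjusted p = 1.0e-05). MRPL54 had 95.5, 65.1 and 99.2 FPKM in OGD/R against 179, 195 and 180.2 FPKM in OGD, and OGD/R replicate 2 was the lowest of all (log2 fold change -1.11 ± 0.17 (SE), adjusted p = 9.0e-05). MRPS18C had 70.3, 55.6 and 65.6 FPKM in OGD/R against 133, 139.7 and 124 FPKM in OGD, without overlap (log2 fold change -1.04 ± 0.13 (SE), adjusted p = 1.6e-05), and shares 1296 exon bases on the opposite strand with ABRAXAS1.

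The 6 genes that rose were MRPL49, MRPL44, MRPL16, MRPS25, MRPS27 and MRPL38. MRPL49 changed by 0.49 ± 0.08 (SE), adjusted p = 2.3e-04, MRPL44 by 0.39 ± 0.09 (SE), adjusted p = 0.0024 and MRPL16 by 0.38 ± 0.10 (SE), adjusted p = 0.0046. These are 3 of the 5 genes that had fallen in OGD, and the same OGD libraries enter both differences. MRPS25, a small subunit protein found only in mitochondria, had 11.8, 14.6 and 13.5 FPKM in OGD/R against 11.1, 10.2 and 10.1 FPKM in OGD (log2 fold change 0.31 ± 0.12 (SE), adjusted p = 0.028). MRPS27, a pentatricopeptide repeat protein, had 18.96, 22.6 and 20.3 FPKM in OGD/R against 17.5, 16.5 and 17.1 FPKM in OGD (log2 fold change 0.26 ± 0.10 (SE), adjusted p = 0.037). Neither gene's groups overlapped, and in both OGD/R replicate 2 was the highest library.

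MRPL38, part of the central protuberance, changed by 0.23 ± 0.09 (SE), adjusted p = 0.041. Relative to the median of all genes the 6 log2 differences were 0.10 for MRPL49, 0.00 for MRPL44, -0.01 for MRPL16, -0.08 for MRPS25, -0.13 for MRPS27 and -0.16 for MRPL38. With median-of-ratios scaling 5 of the 6 had a negative sign, MRPL49 being at 0.03, and MRPL38 was called lower (-0.23, adjusted p = 0.014). With the trend with transcript length removed MRPS25 was called lower (-0.32, adjusted p = 0.016). The calls of MRPS25, MRPS27 and MRPL38 were lost when OGD/R replicate 2 was left out (adjusted p 0.098, 0.12 and 0.12). They were also lost without OGD/R replicate 3 (0.079, 0.077 and 0.076), without OGD replicate 2 (0.084, 0.11 and 0.15) and without OGD replicate 3 (0.089, 0.087 and 0.062), and those of MRPS27 and MRPL38 without OGD replicate 1 (0.065 and 0.084).

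Set against undeprived cells, the recovered cells had lower levels of many members. Of the 78 genes, 33 fell and 2 rose in OGD/R against control, where 16.5% of all genes tested fell and 24.7% rose. The median log2 fold change was -0.30 over the 78 genes and 0.07 over all genes, a difference of -0.36. The large subunit had 23 genes down and 0 up of 49 (median -0.33), and the small subunit 10 down and 2 up of 29 (median -0.26). Among genes named for the small subunit, those classed as mitochondria-specific showed 2 down and 2 up of 13 (median 0.02). Those classed with a bacterial counterpart showed 8 down and 0 up of 16 (median -0.30). Of the 13, MRPS18A and MRPS18B are homologues of MRPS18C, which is among the 16. The 13 include MRPS18A and MRPS30, which structures place in the large subunit. They also include MRPS36, 1 of the 2 that fell, which structures place in neither subunit. The difference between these groups of genes was not tested. The count of lower members was 49 without control replicate 2, 23 without OGD/R replicate 2 and 25 without control replicate 3, where 1884, 1519 and 1798 of 10818 genes fell. It was 19 with libraries scaled to the same summed FPKM, where 8.62% of all genes fell. In all settings run, 15 genes were called lower: MRPL13, MRPL15, MRPL17, MRPL22, MRPL30, MRPL34, MRPL39, MRPL40, MRPL45, MRPL47, MRPL50, MRPS16, MRPS18C, MRPS22 and MRPS36. Here too the matching share of all genes was not counted.

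MRPL13, a large subunit protein with a bacterial counterpart, showed the largest fall among members whose groups did not overlap. It had 88.3, 87.7 and 90.4 FPKM in OGD/R, 141, 141 and 145 FPKM in OGD and 141, 141 and 163 FPKM in control libraries. The OGD/R libraries lay within a few FPKM of each other and far below both other groups, which overlapped. The log2 fold change in OGD/R against control was -0.73 ± 0.08 (SE), adjusted p = 6.1e-05, or 0.599 of the control mean, while that in OGD against control was -0.05 ± 0.08 (SE), adjusted p = 0.59. In OGD against control MRPL13 was called lower with equal sums (-0.33, adjusted p = 0.0027) and with the length trend removed (-0.18, adjusted p = 0.033), and higher with median-of-ratios scaling (0.32, adjusted p = 0.03).

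MRPS36 was also lower in recovery. Later structural work, as background, places this protein in the 2-oxoglutarate dehydrogenase complex and not in the ribosome. It had 41.3, 35.4 and 37.1 FPKM in OGD/R, 75.7, 79.2 and 77.1 FPKM in OGD and 56.6, 53.4 and 72.6 FPKM in control libraries, with OGD/R below all others (log2 fold change in OGD/R against control -0.66 ± 0.11 (SE), adjusted p = 7.3e-04). MRPS22, a small subunit protein found only in mitochondria, had 40.4, 65.05 and 39.8 FPKM in OGD/R, 67.8, 88.99 and 78.9 FPKM in OGD and 71.3, 67.9 and 87.9 FPKM in control libraries. OGD/R replicate 2 stood well above the other 2 OGD/R libraries and just below the lowest control (log2 fold change -0.66 ± 0.17 (SE), adjusted p = 0.0095).

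MRPL30 had 14.3, 17.3 and 15.4 FPKM in OGD/R against 24.2, 29.99 and 21.8 FPKM in control (log2 fold change -0.65 ± 0.12 (SE), adjusted p = 0.0012). MRPL50 had 18.3, 19.5 and 18.95 FPKM in OGD/R against 29.2, 30.1 and 28.6 FPKM in control (log2 fold change -0.61 ± 0.08 (SE), adjusted p = 1.9e-04). MRPL39, which resembles a threonyl-tRNA synthetase, had 40.7, 43.8 and 41.8 FPKM in OGD/R against 60.8, 61.1 and 68.4 FPKM in control (log2 fold change -0.58 ± 0.09 (SE), adjusted p = 5.5e-04). In none of the 3 did the groups overlap, and none of the 3 was called in OGD against control as deposited. With equal sums all 3 were called lower there (-0.42 for MRPL30, -0.41 for MRPL50 and -0.51 for MRPL39, adjusted p = 0.028, 0.0057 and 7.8e-04), and MRPL50 was called higher with median-of-ratios scaling (0.23, adjusted p = 0.027). MRPL30 shares exon bases with 2 non-coding genes on its own strand, and MRPS22 with PRR23A on the opposite strand.

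The 2 genes that rose against control were MRPS27, with 18.96, 22.6 and 20.3 FPKM in OGD/R against 14.8, 16.96 and 17.2 FPKM in control (log2 fold change 0.32 ± 0.10 (SE), adjusted p = 0.025), and MRPS25, with 11.8, 14.6 and 13.5 FPKM against 11.3, 9.26 and 11.02 FPKM (log2 fold change 0.31 ± 0.12 (SE), adjusted p = 0.048). The call of MRPS27 was lost without OGD/R replicate 2 (adjusted p = 0.086), OGD/R replicate 3 (0.062) or control replicate 1 (0.068). Both calls were also lost with median-of-ratios scaling, quantile normalization or the length trend removed. That of MRPS25 was lost without OGD/R replicate 2 or 3, any 1 OGD library, or control replicate 2 or 3 (adjusted p 0.05 to 0.15), and was kept when OGD/R replicate 1 or control replicate 1 was left out. MRPS25 shares 756 exon bases with NR2C2 on the opposite strand.

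Of the members chosen for their role, MRPL12 and MRPL10 belong to the stalk. MRPL12, which binds translation factors on the stalk, had 70.2, 60.8 and 67.5 FPKM in OGD/R, 104, 105 and 104 FPKM in OGD and 81.7, 55.2 and 85.7 FPKM in control libraries, and control replicate 2 was the lowest of all 9. It rose in OGD against control (0.51 ± 0.14 (SE), adjusted p = 0.0075) and fell in OGD/R against OGD (-0.65 ± 0.14 (SE), adjusted p = 0.0011). The fall was not called with libraries scaled to the same summed FPKM (-0.23, adjusted p = 0.079) or with the length trend removed (-0.25, adjusted p = 0.057). MRPL10, which anchors MRPL12, had 19.1, 20.6 and 17.5 FPKM in OGD/R, 20.6, 20.2 and 20.4 FPKM in OGD and 16.9, 18.1 and 19.1 FPKM in control libraries. OGD lay above all control libraries and OGD/R overlapped both other groups, and as deposited neither change passed the test (0.17 ± 0.10 (SE), adjusted p = 0.14 in OGD against control, -0.09 ± 0.10 (SE), adjusted p = 0.39 in OGD/R against OGD). Its call depended on the scale. In OGD against control it was called higher with median-of-ratios scaling (0.53, adjusted p = 0.0015), quantile normalization (0.44, adjusted p = 0.0061) and the length trend removed (0.27, adjusted p = 0.025). Its value in OGD/R against OGD was called lower with the first 2 of these (-0.54 and -0.44, adjusted p = 5.5e-04 and 0.0029) and higher with equal sums (0.32, adjusted p = 0.021).

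Around the peptidyl transferase centre, MRPL3 rose in OGD against control (0.34 ± 0.08 (SE), adjusted p = 0.0044) and fell below control in OGD/R (-0.34 ± 0.08 (SE), adjusted p = 0.0064). MRPL27 averaged 75.2 ± 12.8 FPKM in OGD/R, 139.8 ± 2.08 FPKM in OGD and 98.5 ± 23.6 FPKM in control (SD, n = 3 each), rose in OGD (0.53 ± 0.16 (SE), adjusted p = 0.013) and did not pass the test in OGD/R against control (-0.37 ± 0.16 (SE), adjusted p = 0.076), where it was called lower without control replicate 2 (-0.54, adjusted p = 0.011). MRPL4 had 71.8, 75.3 and 73.8 FPKM in OGD/R, 67.7, 70.5 and 71.6 FPKM in OGD and 75.1, 73.7 and 65.3 FPKM in control libraries. As deposited it passed no test, with log2 fold changes of 0.07 in OGD/R against OGD, -0.03 in OGD against control and 0.05 in OGD/R against control. Under other scales it was called in opposite directions. In OGD against control the value was -0.30 (adjusted p = 0.023) with equal sums and 0.34 (adjusted p = 0.0048) with median-of-ratios scaling. The value in OGD/R against OGD was 0.50 (adjusted p = 8.2e-04) and -0.39 (adjusted p = 0.0011) under the same settings, and 0.20 (adjusted p = 0.046) with the length trend removed.

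At the exit of the tunnel, MRPL24 rose in OGD as given above, whereas MRPL22 (0.26 ± 0.14 (SE), adjusted p = 0.14) and MRPL23 (0.27 ± 0.12 (SE), adjusted p = 0.079) did not pass the test in that comparison. Without control replicate 3 both did, at 0.43 (adjusted p = 0.0069) for MRPL22 and 0.38 (adjusted p = 0.016) for MRPL23, and with median-of-ratios scaling, at 0.62 (adjusted p = 0.016) and 0.63 (adjusted p = 0.0062). MRPL45, which binds the ribosome to the inner membrane, had 27.9, 30.1 and 27.3 FPKM in OGD/R, 48.9, 50.3 and 53.7 FPKM in OGD and 41.2, 39.5 and 40.8 FPKM in control libraries. The 3 groups were separate, OGD highest and OGD/R lowest (0.32 ± 0.08 (SE), adjusted p = 0.0055 in OGD against control, -0.50 ± 0.08 (SE), adjusted p = 6.3e-04 in OGD/R against control). MRPL58, also called ICT1, is a peptidyl-tRNA hydrolase built into the large subunit. It averaged 39.5 ± 3.28 FPKM in OGD/R, 74.2 ± 2.55 FPKM in OGD and 49.5 ± 3.96 FPKM in control (SD, n = 3 each), rose in OGD (0.58 ± 0.09 (SE), adjusted p = 3.3e-04) and fell in OGD/R against OGD (-0.89 ± 0.09 (SE), adjusted p = 4.3e-06).

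In the small subunit, MRPS12, which sits at the decoding centre, had 32.6, 29.03 and 34.1 FPKM in OGD/R, 56.4, 60.1 and 63.00 FPKM in OGD and 40.2, 38.8 and 41.6 FPKM in control libraries. The groups were separate and the control libraries close together (log2 fold change 0.56 ± 0.09 (SE), adjusted p = 3.1e-04 in OGD against control, -0.33 ± 0.09 (SE), adjusted p = 0.011 in OGD/R against control). MRPS7 of the head rose in OGD (0.40 ± 0.10 (SE), adjusted p = 0.005). MRPS2 and MRPS5 averaged 32.3 ± 5.10 and 18.01 ± 1.81 FPKM in OGD/R, 29.1 ± 0.702 and 15.9 ± 0.721 FPKM in OGD and 26.2 ± 1.52 and 15.6 ± 3.23 FPKM in control (SD, n = 3 each). As deposited neither passed a test, MRPS2 being nearest in OGD/R against control (0.29 ± 0.11 (SE), adjusted p = 0.052). There it was called higher without OGD/R replicate 3 (0.37, adjusted p = 0.031), without control replicate 2 (0.32, adjusted p = 0.049), with equal sums (0.44, adjusted p = 0.019), with quantile normalization (0.29, adjusted p = 0.033) and with the length trend removed (0.38, adjusted p = 0.011). In OGD against control MRPS2 was called higher with median-of-ratios scaling (0.51, adjusted p = 0.0011) and quantile normalization (0.35, adjusted p = 0.016). For OGD/R against OGD it was called at 0.56 with equal sums (adjusted p = 0.0018) and at -0.32 with median-of-ratios scaling (adjusted p = 0.0081). MRPS5 was called higher in OGD against control with median-of-ratios scaling (0.40, adjusted p = 0.04), and with equal sums in OGD/R against OGD (0.58, adjusted p = 0.0012) and in OGD/R against control (0.36, adjusted p = 0.045). MRPS34 rose in OGD (0.31 ± 0.10 (SE), adjusted p = 0.018), a call that was lost when OGD replicate 2, OGD replicate 3 or control replicate 2 was left out (adjusted p 0.066, 0.052 and 0.059).

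The homologues MRPS18A, MRPS18B and MRPS18C are separate proteins of the same ribosome, and structures place MRPS18A, like MRPS30, in the large subunit. MRPS18B averaged 29.9 ± 0.492 FPKM in OGD/R, 42.8 ± 3.32 FPKM in OGD and 28.3 ± 2.63 FPKM in control, and MRPS18C averaged 63.8 ± 7.47, 132 ± 7.90 and 92.6 ± 17.7 FPKM in the same groups (SD, n = 3 each). Both rose in OGD, by 0.58 ± 0.09 (SE), adjusted p = 3.8e-04 for MRPS18B and 0.52 ± 0.13 (SE), adjusted p = 0.0043 for MRPS18C. Against control, MRPS18C was lower after recovery (-0.52 ± 0.13 (SE), adjusted p = 0.0066) and MRPS18B did not pass the test (0.08 ± 0.09 (SE), adjusted p = 0.53). MRPS18A rose in OGD (0.29 ± 0.10 (SE), adjusted p = 0.028), a call that was lost when any 1 of OGD replicates 2 and 3 and control replicates 1 and 2 was left out (adjusted p 0.079 to 0.097). As deposited MRPS30 passed no test, with 20.7, 22.5 and 18.6 FPKM in OGD/R, 20.2, 18.4 and 21.3 FPKM in OGD and 19.1, 21.4 and 18.6 FPKM in control. It was called higher in OGD against control with median-of-ratios scaling (0.37, adjusted p = 0.01) and quantile normalization (0.29, adjusted p = 0.038). In OGD/R against OGD it was called lower with both of these (-0.40 and -0.29, adjusted p = 0.0039 and 0.023) and higher with equal sums (0.46, adjusted p = 0.0065). With libraries scaled to the same summed FPKM, the rise in OGD was no longer called for MRPL12, MRPL27, MRPL3, MRPL45, MRPS7, MRPS34, MRPS18A and MRPS18C, and the fall in OGD/R against control no longer for MRPL3 and MRPS12. With the length trend removed, the rise in OGD was no longer called for MRPL27, MRPS34 and MRPS18A, and the fall in OGD/R against control no longer for MRPS12. Counting MRPS18A and MRPS30 with the large subunit gave 23 up and 3 down of 51 in OGD against control and 23 down and 0 up in OGD/R against control.

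One member, MRPS23, varied widely within 1 group. It had 38.3, 41.2 and 15.5 FPKM in OGD/R, 27.1, 26.6 and 28.6 FPKM in OGD and 21.6, 16.9 and 22.9 FPKM in control libraries. OGD/R replicates 1 and 2 were above all other libraries and OGD/R replicate 3 below all of them, and as deposited no comparison passed the test (0.08 ± 0.27 (SE), adjusted p = 0.79 in OGD/R against OGD, 0.50 ± 0.27 (SE), adjusted p = 0.16 in OGD/R against control). Without OGD/R replicate 3 it was called higher in OGD/R against OGD (0.52, adjusted p = 0.0046), in OGD against control (0.42, adjusted p = 0.011) and in OGD/R against control (0.94, adjusted p = 5.7e-04). The rise in OGD against control was also called with median-of-ratios scaling, with the length trend removed and in a fit of only these 2 groups (adjusted p 0.046, 0.044 and 0.017). MRPS23 was chosen after its values were seen.

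Members have short transcripts, and short transcripts as a class moved the same way. The median length of the principal transcript in GENCODE v29 was 1458.5 nt for the 78 genes and 3083.5 nt for all genes tested, and 69 of the 78 were shorter than that. Genes were put into 10 classes of length with about equal numbers. The shortest class (217 to 1293 nt, 1081 genes, 34 of them members) had a median log2 fold change of 0.21 in OGD against control, and 39.0% of them rose. The 34 members among them had a median of 0.39, and 21 rose. In OGD/R against OGD the same 1081 genes had a median of -0.54 with 62.9% lower, and the 34 members a median of -0.71 with 31 lower. In OGD/R against control the medians were -0.30 for the 1081 genes and -0.32 for the 34 members. In the next class (1294 to 1781 nt, 1078 genes, 24 members) members and all genes stood further apart, at 0.23 for members against -0.08 for all genes in OGD against control and at -0.49 against -0.06 in OGD/R against OGD. Transcript length moved with these results, and its part in them was not tested beyond 1 adjustment. After the trend with length was removed within each library, 40 of the 78 rose and 6 fell in OGD against control (20.5% and 22.7% of all genes), 47 fell and 6 rose in OGD/R against OGD (29.4% and 29.5%), and 23 fell and 5 rose in OGD/R against control (23.1% and 20.9%). The medians of the 78 genes were then 0.26, -0.36 and -0.08, against -0.03, 0.00 and -0.03 over all genes.

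**Figure D4:**
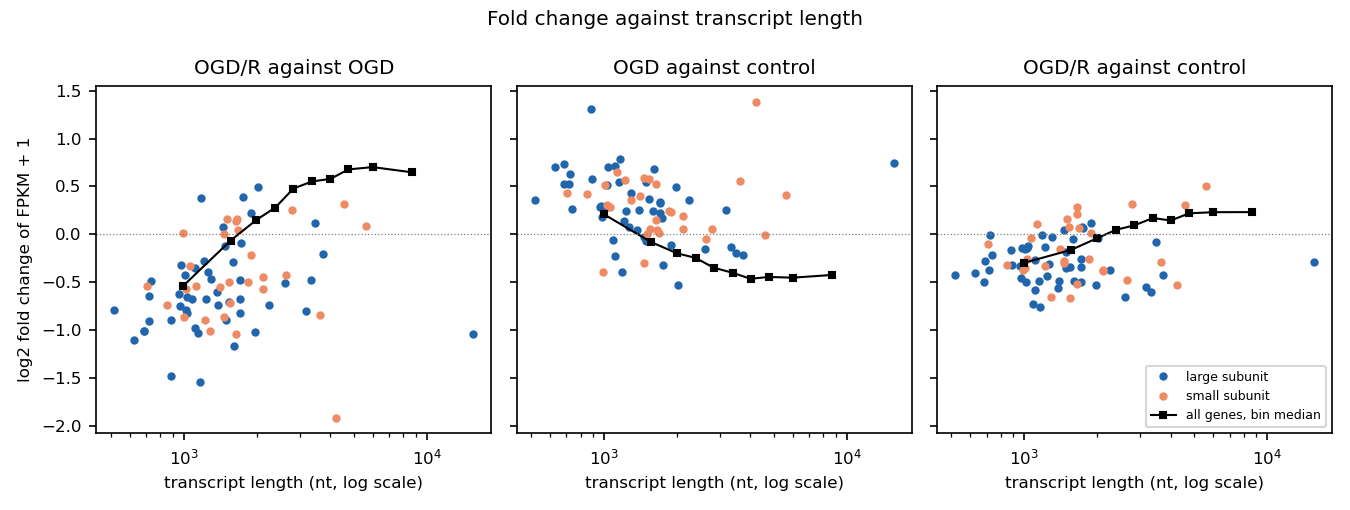
Log2 fold change of FPKM + 1 against transcript length (nt, log scale) for large (blue) and small (orange) subunit genes in 3 comparisons, with the median of all genes in 10 classes of length (black squares). The shortest class of all genes lies at -0.54, 0.21 and -0.30 in the 3 panels, and most members lie in the 2 shortest classes.

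Many members start close to a gene on the other strand. A protein-coding gene starting on the other strand within 1000 bases, on either side of the member's start, was found for 29 of the 78 (37.2%), against 2049 of 10802 genes tested (19.0%). Such pairs can overlap and share exon bases: 349 for MRPS12 and SARS2, 24 for MRPL32 and PSMA2 and 114 for MRPL49 and FAU. Whether strand was used in counting is not given, so the values of overlapping pairs are uncertain. Partners did not always show the values of the member. MRPL36 rose in OGD as above, and NDUFS6, a complex I subunit whose start lies 34 bases away, had 106, 117 and 123 FPKM in OGD against 95.1, 64.8 and 135 FPKM in control, with overlap (log2 fold change 0.29 ± 0.21 (SE), adjusted p = 0.25). That distance is from the start of the GENCODE gene. The promoter printed above for MRPL36 belongs to a RefSeq start inside the gene's span and may not be the region beside NDUFS6. MRPS12 rose in OGD, and SARS2, the mitochondrial seryl-tRNA synthetase, changed by 0.07 ± 0.14 (SE), adjusted p = 0.67. MRPL32 rose in OGD (0.70 ± 0.15 (SE), adjusted p = 0.0023), and PSMA2, a proteasome subunit, changed by -0.05 ± 0.21 (SE), adjusted p = 0.85. MRPL49 fell in OGD, and FAU, a cytosolic ribosomal protein gene whose start lies 290 bases away, rose (0.86 ± 0.14 (SE), adjusted p = 4.2e-04). MRPL46 and MRPS11 form 1 such pair, with starts 34 bases apart, and are both members. MRPL46 had 29.4, 33.4 and 29.5 FPKM in OGD/R, 55.1, 48.7 and 57.6 FPKM in OGD and 46.3, 36.1 and 50.3 FPKM in control libraries, and MRPS11 had 19.4, 19.6 and 20.9 FPKM in OGD/R, 35.5, 35.6 and 38.7 FPKM in OGD and 25.7, 18.5 and 31.1 FPKM in control libraries. For MRPL46 OGD/R lay below all control libraries and OGD overlapped them, and for MRPS11 OGD lay above all control libraries and OGD/R overlapped them. The difference between OGD and control passed the test for MRPS11 (0.56 ± 0.15 (SE), adjusted p = 0.0065) and not for MRPL46 (0.29 ± 0.12 (SE), adjusted p = 0.059). Without control replicate 3 MRPL46 was called too (0.38, adjusted p = 0.016), as it was with median-of-ratios scaling and quantile normalization, and MRPS11 was not called with equal sums (0.29, adjusted p = 0.053).

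Exons of 32 members overlap those of another annotated gene, and 34 have at least 1 annotated pseudogene that carries their name, with which reads may be shared. Of the 46 members without exon overlap, 26 rose and 2 fell in OGD against control (median 0.36). In OGD/R against OGD 37 of them fell and 2 rose (median -0.72). The 32 with overlap had 11 up and 3 down in OGD against control (median 0.24), and 22 down and 4 up in OGD/R against OGD (median -0.48). Among all genes tested 11.3% rose and 46.7% fell in OGD against control, and 17.4% fell and 53.3% rose in OGD/R against OGD. The difference between these sets of members was not tested.

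Other genes of mitochondrial translation are given beside the 78 for comparison, by counts alone. Among all genes tested 11.3% rose and 46.7% fell in OGD against control, and 53.3% rose and 17.4% fell in OGD/R against OGD. The 5 listed ribosomal proteins that carry other names divided as 4 down and 1 up in OGD/R against OGD, and 2 up and 0 down in OGD against control. DAP3, a small subunit protein that binds GTP, rose in OGD (0.52 ± 0.12 (SE), adjusted p = 0.0036), and PTCD3 rose in OGD/R against OGD (0.57 ± 0.13 (SE), adjusted p = 0.002). Of 27 genes for assembly and rRNA modification, 7 fell and 7 rose in OGD/R against OGD and 5 rose and 4 fell in OGD against control (median 0.10). MPV17L2, needed for large subunit assembly, rose in OGD (0.60 ± 0.09 (SE), adjusted p = 2.1e-04), and the rRNA methyltransferase gene MRM2 fell (-0.81 ± 0.12 (SE), adjusted p = 2.4e-04). Of 17 translation factors 3 rose and 1 fell in OGD against control (median -0.02), with MRRF, the ribosome recycling factor, at 1.27 ± 0.18 (SE), adjusted p = 1.4e-04. Of 7 genes of mitochondrial transcription 1 rose and 2 fell in OGD against control, TFB2M rising by 0.32 ± 0.12 (SE), adjusted p = 0.041 and MTERF2 and TFAM falling.

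Of the 8 tested regulators 1 rose and 3 fell in OGD against control (12.5% and 37.5%), where 11.3% of all genes rose and 46.7% fell. In OGD/R against OGD 5 rose and 0 fell (62.5% and 0%), where 53.3% of all genes rose and 17.4% fell. The medians of these regulators lay only 0.11 and 0.07 above those of all genes, so the set moved much as all genes did. GABPA had 7.36, 9.43 and 8.28 FPKM in OGD/R, 6.64, 5.72 and 6.26 FPKM in OGD and 13.99, 15.1 and 9.78 FPKM in control libraries, and fell in OGD against control (-0.93 ± 0.15 (SE), adjusted p = 4.1e-04). YY1 had 7.32, 7.92 and 7.56 FPKM in OGD against 13.1, 12.2 and 10.1 FPKM in control, and also fell (-0.57 ± 0.12 (SE), adjusted p = 0.0015). NRF1 did not pass the test (-0.33 ± 0.17 (SE), adjusted p = 0.099). MYC, a general regulator of growth genes, had 74.8, 89.4 and 76.4 FPKM in OGD/R, 36.7, 38.9 and 38.5 FPKM in OGD and 30.9, 25.5 and 25.8 FPKM in control libraries. Its 3 groups were separate, with OGD/R highest and control lowest (1.52 ± 0.10 (SE), adjusted p = 2.5e-06 in OGD/R against control).

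The 2 larger sets are those of cytosolic ribosomal proteins and of the respiratory chain. Among all genes tested 11.3% rose and 46.7% fell in OGD against control (median -0.31). The shares were 53.3% up and 17.4% down in OGD/R against OGD (median 0.39). They were 24.7% up and 16.5% down in OGD/R against control (median 0.07). Of 80 cytosolic ribosomal protein genes tested, 79 rose and 0 fell in OGD against control (median 0.88), 80 fell in OGD/R against OGD (median -1.43) and 44 fell and 0 rose in OGD/R against control (median -0.48). Of 80 nuclear encoded respiratory chain genes tested, 35 rose and 4 fell in OGD against control (median 0.32), 62 fell and 3 rose in OGD/R against OGD (median -0.64) and 42 fell and 1 rose in OGD/R against control (median -0.34). The medians of the 78 members, 0.29, -0.57 and -0.30 in the same comparisons, were nearer to those of the respiratory chain genes than to those of the cytosolic ribosome. No test of these differences was made. With each library scaled to the same summed FPKM, the median of the members was 0.02 in OGD against control and -0.16 in OGD/R against OGD.

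**Figure D5:**
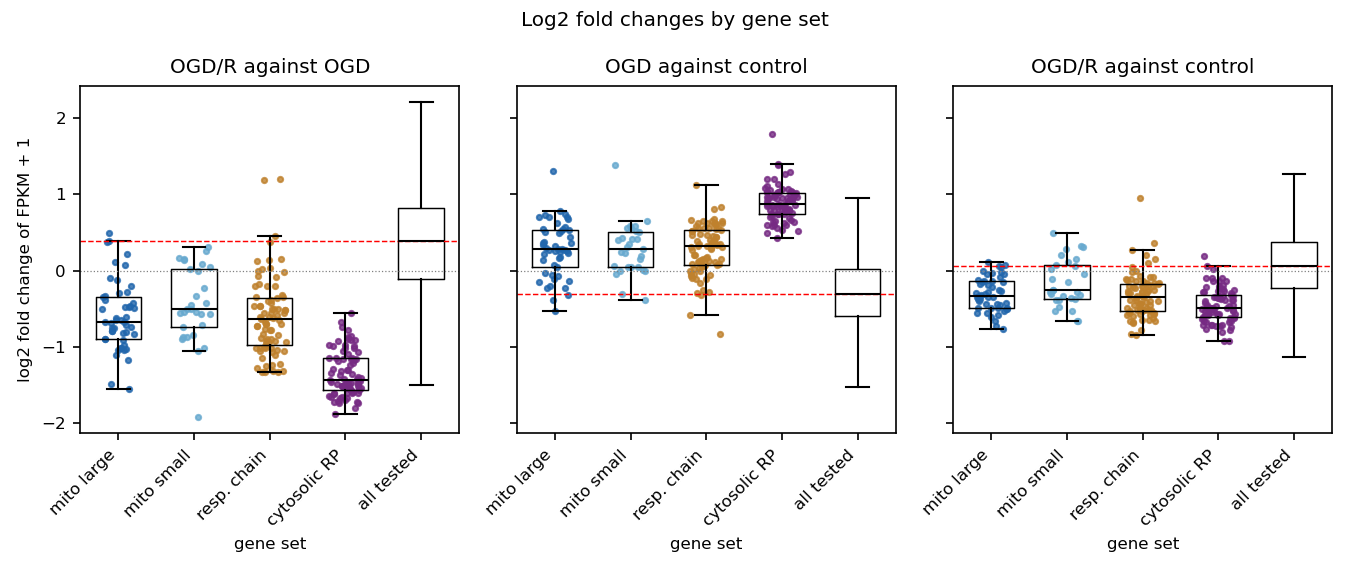
Log2 fold change of FPKM + 1 of each gene (points) in 4 sets, with boxes for quartiles, whiskers to 1.5 times the box and a box for all genes tested. The red dashed line is the median of all genes (0.39, -0.31 and 0.07 from left to right), and the 2 mitochondrial ribosome sets lie below it, above it and below it, nearer to the respiratory chain set than to the cytosolic ribosomal proteins (RP).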

How the data were processed

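RNA of 9 libraries was measured. Per the labels' protocols, total RNA was extracted with the RNeasy mini plus kit and made into libraries with the SMARTer mRNA-Seq kit. The sample titles gave groups and replicate numbers. The authors deposited 1 table of FPKM values, and per the submitters' processing notes the build was GRCh38. Aligner, counting tool, annotation and use of strand were not given in the sources used here. Whole reads could not be recovered from low values (at most 0.633% of 474 low genes shared 1 ratio between libraries), so depth is unknown and no counting interval is given.

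Genes with 1 FPKM or more in at least 3 libraries were tested (10818 of 15570) with limma 3.58.1 (R 4.3.3) on the log2(FPKM + 1) scale. One fit of 3 groups (lmFit, eBayes with trend, 6 residual degrees of freedom) gave 3 two-sided comparisons, with Benjamini-Hochberg adjustment over all genes tested and a threshold of 0.05. A fold change on the log2(FPKM + 1) scale understates the change of low genes. No scaling between libraries was added. The procedure was tested on simulated data. Alternatives were a pseudocount of 0.1, no filter, median-of-ratios scaling, equal summed FPKM, quantile normalization, removal of a loess trend (span 0.5) with transcript length, a fit of only the 2 groups compared, a replicate block, leaving out each library, and a subunit assignment after structures.

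The members and gene lists were chosen with earlier results of these data known. Genes were named by a rule: the 6 largest changes per direction and comparison among called members whose libraries did not overlap, members fixed by role, the 3 highest and 3 lowest per subunit, and the called gene of largest change per other list. Not all genes of that last part are described. The lists were cytosolic ribosomal proteins, respiratory chain genes, mitoribosomal proteins with other names, assembly and rRNA modification, translation factors, mitochondrial transcription, nuclear regulators, and the markers. Coordinates and promoters came from RefSeq (GRCh38.p14), and lengths and exon overlaps from GENCODE v29 (10804 tested genes had a length). Mitochondrially encoded messages were not analysed here. Figures used matplotlib 3.10.9 in Python 3.11.15.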

Additional observations from a re-analysis of the deposited data

How the results depend on the processing

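Which genes rose or fell depended on how libraries were put on a common scale. Of 78 members, with median-of-ratios scaling 0 rose in OGD/R against OGD, 67 rose and 0 fell in OGD against control, and 0 rose in OGD/R against control, with medians of -1.03, 0.65 and -0.39, where 32.6%, 26.5% and 22.1% of all genes rose and 34.2%, 23.1% and 23% fell. With equal summed FPKM 16 rose and 30 fell, 17 rose and 17 fell, and 5 rose and 19 fell in the same comparisons, with medians of -0.16, 0.015 and -0.16, where 71.6%, 5.65% and 31.1% of all genes rose and 7.76%, 65.4% and 8.62% fell. With quantile normalization 2 rose in OGD/R against OGD, 3 fell in OGD against control and 1 rose in OGD/R against control. In the same comparisons 31.4%, 20% and 22.1% of all genes rose and 31.3%, 22.4% and 23.1% fell. With the transcript length trend removed the medians were -0.36 in OGD/R against OGD and -0.083 in OGD/R against control, where 5 rose (20.9% of all genes). No median turned its sign under any setting run. In OGD/R against control 1 rose with no filter on low values, where 2617 of all 15570 genes rose. There 0 rose when only the 2 groups compared were fitted, where 2214 of 10818 genes rose. The pseudocount of 0.1 moved no count by over 1.5 times.

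Leaving out 1 library at a time gave 3 to 6 members up in OGD/R against OGD, 3 to 5 down in OGD against control (3 without OGD replicate 2) and 0 to 2 up in OGD/R against control (0 without OGD/R replicate 2). Over all 10818 genes tested the same counts ran from 5154 to 5917, from 4182 to 5341 and from 1905 to 3015. The median of the members ran from 0.22 to 0.39 in OGD against control and from -0.36 to -0.18 in OGD/R against control, the last without control replicate 3. At least 1 left-out library ended the call of 7 of 37 genes up and 2 of 5 down in OGD against control, of 3 of 6 up and 5 of 59 down in OGD/R against OGD, and of 2 of 2 up and 12 of 33 down in OGD/R against control. It added calls for 16, 2 and 23 further members in these comparisons. Such losses and gains were counted for members only, so whether they exceed those of all genes is unknown.

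Replicates share only a number: same-numbered libraries had correlations of -0.20 to 0.15, so they were not treated as pairs. Most libraries correlated best with a library of another number. In OGD/R against OGD the same-numbered values, -0.13, -0.11 and -0.045, were each the lowest for that OGD/R library. With a replicate block 3 rose and 57 fell in OGD/R against OGD, 36 rose and 4 fell in OGD against control, and 1 rose and 35 fell in OGD/R against control. Of all 10818 genes tested 5634, 1166 and 2474 rose and 1818, 4790 and 1654 fell in the same comparisons.

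The named members that turned in sign and were called as deposited or under the setting are given with their log2 fold change under that setting in brackets. Those that turned in sign with no call under either are not listed. With median-of-ratios scaling they were, in OGD/R against OGD, MRPL44 (-0.058), MRPL16 (-0.081), MRPS25 (-0.12), MRPS27 (-0.19), MRPL38 (-0.23), MRPS6 (-0.45), MRPS31 (-0.44), MRPL4 (-0.39), MRPS2 (-0.32), MRPS30 (-0.40) and MRPL19 (-0.31); in OGD against control, MRPL44 (0.033), MRPS25 (0.34), MRPL38 (0.26), MRPS31 (0.051), MRPL13 (0.32), MRPL50 (0.23) and MRPL4 (0.34). With quantile normalization they were, in OGD/R against OGD, MRPS25 (-0.14), MRPS27 (-0.10), MRPS31 (-0.36), MRPS30 (-0.29) and MRPL19 (-0.39); in OGD against control, MRPS25 (0.36). With the length trend removed they were, in OGD/R against OGD, MRPS25 (-0.32), MRPS27 (-0.15), MRPL23 (0.17), MRPS18A (0.045), MRPL19 (-0.43), MRPL33 (0.099) and MRPS24 (0.15); in OGD against control, MRPS25 (0.41) and MRPL50 (0.24); in OGD/R against control, MRPL36 (0.079), MRPS18A (0.19) and MRPS24 (0.25). With equal summed FPKM they were, in OGD/R against OGD, MRPL39 (0.068), MRPL10 (0.32) and MRPS18A (0.081). The cause was not tested. Read depth is unknown, so the counting error of low genes such as MRPL19 and MRPL42 cannot be given.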
